A study of Mus musculus with 12 samples.

Results

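High mobility group proteins are abundant chromatin proteins that are not histones, and 9 genes that encode them were followed here through chemically induced senescence of mouse mammary fibroblasts. The genes were taken by name from the 55487 genes of the expression table. They were Hmgb1, Hmgb2 and Hmgb3 of the HMGB family, Hmga1 and Hmga2 of the HMGA family, and Hmgn1, Hmgn2, Hmgn3 and Hmgn5 of the HMGN family. All 9 were found, and all 9 passed the filter on low values.

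HMGB proteins bend DNA through their HMG boxes, and HMGB1 can also leave the nucleus and act outside the cell as an alarm signal. HMGA proteins bind the minor groove of AT-rich DNA through AT hooks, and in human fibroblasts they have been described as structural parts of the heterochromatic foci of senescent cells. HMGN proteins bind nucleosomes directly and compete with linker histone H1 for chromatin.

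All cells came from a primary fibroblast line (MMF) grown, per the labels, out of mammary fat pad tissue of a healthy B6 mouse, and each of the 4 groups held 3 libraries. The doxorubicin group received this DNA-damaging topoisomerase poison at 100 nM for 24 h, with lysis on day 7. The peroxide group was exposed to 750 uM hydrogen peroxide for 2 h, 3 times in all, each followed by 48 h of recovery as far as the labels say, with lysis on day 6. A water vehicle group, lysed on the same day, accompanied either treatment and was split routinely, so passaging differed between treated and vehicle cells as well. Whether the libraries of a group came from separate cultures is not stated in the labels, and p-values therefore reflect only how far these libraries spread, which may be technical. Values are CPM, the reads of a gene per 1000000 reads assigned to genes in that library. In bulk RNA, fewer cells with a transcript and less of that transcript per cell cannot be told apart.

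Estimated depth was 17.3 to 37.6 M reads (1 M is 1000000 reads) per library, at which 3 reads correspond to 0.0798 to 0.173 CPM. Doxorubicin vehicle replicate 3, peroxide replicate 2 and doxorubicin replicate 1 stood apart from their groups on the second principal component. Fold changes of the 9 genes that rest on them are given with and without them. All 10 fibroblast markers reached 1 CPM (summed level 7038 to 14248 CPM), and 0 of 9 epithelial markers did (summed level 0 to 1.26 CPM). Of the markers of other cell types, 1 of 7 endothelial genes (Tek), 3 of 8 leukocyte genes, 5 of 7 adipocyte genes and 4 of 8 pericyte or Schwann cell genes reached 1 CPM, while Cldn5 and Kcnj8 were at 0 in all 12 libraries and Ptprc reached at most 0.0927 CPM. The adipocyte list, most of it Lpl, summed to 2291 to 2489 CPM in the doxorubicin vehicle, 1419 to 1505 after doxorubicin, 1069 to 1253 in the peroxide vehicle and 2120 to 2222 after peroxide. The endothelial list summed to 12.5 to 16.4, 34.4 to 45.2, 5.67 to 9.48 and 22.7 to 28.3 CPM in the same order, and the leukocyte list to 11.1 to 17.7, 27.3 to 32.6, 16.3 to 17.4 and 23.6 to 26.5 CPM. The pericyte and Schwann cell list summed to 28.4 to 34.8, 35.7 to 42.0, 29.5 to 32.2 and 42.3 to 49.1 CPM. The part of these shifts in the results was not tested.

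The HMGB genes fell in both treatments, so their promoter sequences are given first. RefSeq promoter windows on GRCm38.p6 (250 bases before to 50 bases after the annotated start) were matched for 8 of the 9 genes, all but Hmgn3, which gave 10 windows. The 250 bases before the start are shown for the HMGB genes, whose fall is the main result, and for Hmga2, which rose after doxorubicin. The stretches are chr5:149053058-149053307 on the minus strand for Hmgb1 (the first of 2 windows), chr8:57511593-57511842 on the plus strand for Hmgb2, chrX:71555667-71555916 on the plus strand for Hmgb3 and chr10:120476470-120476719 on the minus strand for Hmga2. Each is written 5′ to 3′, and capitals mark CCAAT (the CCAAT box) and TTTGAA (a cell cycle homology region), with their reverse complements.
Hmgb1: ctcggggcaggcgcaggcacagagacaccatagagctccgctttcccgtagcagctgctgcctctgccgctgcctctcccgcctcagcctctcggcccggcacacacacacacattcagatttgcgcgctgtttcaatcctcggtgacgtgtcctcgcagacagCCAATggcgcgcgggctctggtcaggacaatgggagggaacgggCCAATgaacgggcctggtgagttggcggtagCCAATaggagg
Hmgb2: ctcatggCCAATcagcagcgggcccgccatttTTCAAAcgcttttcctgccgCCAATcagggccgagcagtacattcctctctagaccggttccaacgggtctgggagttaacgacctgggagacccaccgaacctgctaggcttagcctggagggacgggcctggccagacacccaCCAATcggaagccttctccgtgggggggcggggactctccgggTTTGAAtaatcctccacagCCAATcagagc
Hmgb3: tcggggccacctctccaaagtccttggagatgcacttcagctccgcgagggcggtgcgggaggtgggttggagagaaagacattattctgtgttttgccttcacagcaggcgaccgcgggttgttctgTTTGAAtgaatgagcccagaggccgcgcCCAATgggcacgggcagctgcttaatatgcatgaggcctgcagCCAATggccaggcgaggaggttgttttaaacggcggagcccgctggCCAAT
Hmga2: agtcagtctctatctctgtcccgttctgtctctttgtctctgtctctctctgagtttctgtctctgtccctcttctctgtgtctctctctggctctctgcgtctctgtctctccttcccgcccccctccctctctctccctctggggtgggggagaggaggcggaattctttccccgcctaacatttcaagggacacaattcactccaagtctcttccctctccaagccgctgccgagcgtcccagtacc

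Counting from the annotated start to the first base of the match, CCAAT stood at -86, -42 and -11 in Hmgb1, at -243, -198, -73 and -11 in Hmgb2, and at -94, -51 and -5 in Hmgb3, all on the sense strand. The second Hmgb1 window held no match. Searched on both strands, CCAAT was in 6 of the 8 genes and in 37.4% of all 32851 windows of the same length. At 3 or more places it was in 3 of the 8 genes, the HMGB genes, and in 3.37% of all windows, a cutoff chosen after the sequences were seen. TTTGAA was in 2 of the 8 genes, Hmgb2 and Hmgb3, and in 17.9% of all windows. The Hmga1 and Hmga2 windows held no match to any motif searched. The E2F letters TTTCCCGC, TTTGGCGC and TTTCGCGC, counted as 1 class, matched 0 of the 8 genes and 1.84% of windows, and TATAAA matched 0 of the 8 and 13.6%. These matches describe letters and not bound sites, and the motifs do not overlap each other in the stretches shown.

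The first comparison set each treatment against its own vehicle. After doxorubicin 6 of the 9 genes changed, with 5 lower and 1 higher, against 49.9% of the 13280 tested genes called in either direction, 27.8% lower and 22.1% higher. After peroxide all 9 were lower, against 50.7% of tested genes called in either direction and 23.4% lower. The median log2 fold change of the 9 genes was -0.68 after doxorubicin and -1.10 after peroxide, beside -0.03 and -0.01 over all tested genes. A gene was called at an adjusted p below 0.05 (limma on log2(CPM + 1), Benjamini-Hochberg over all tested genes, two-sided), and fold changes are differences on that log2(CPM + 1) scale, which understates the change of low genes. The 2 comparisons share no libraries. Their spread was estimated together in 1 model of all libraries, so their p-values are not independent.

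**Figure D1:**
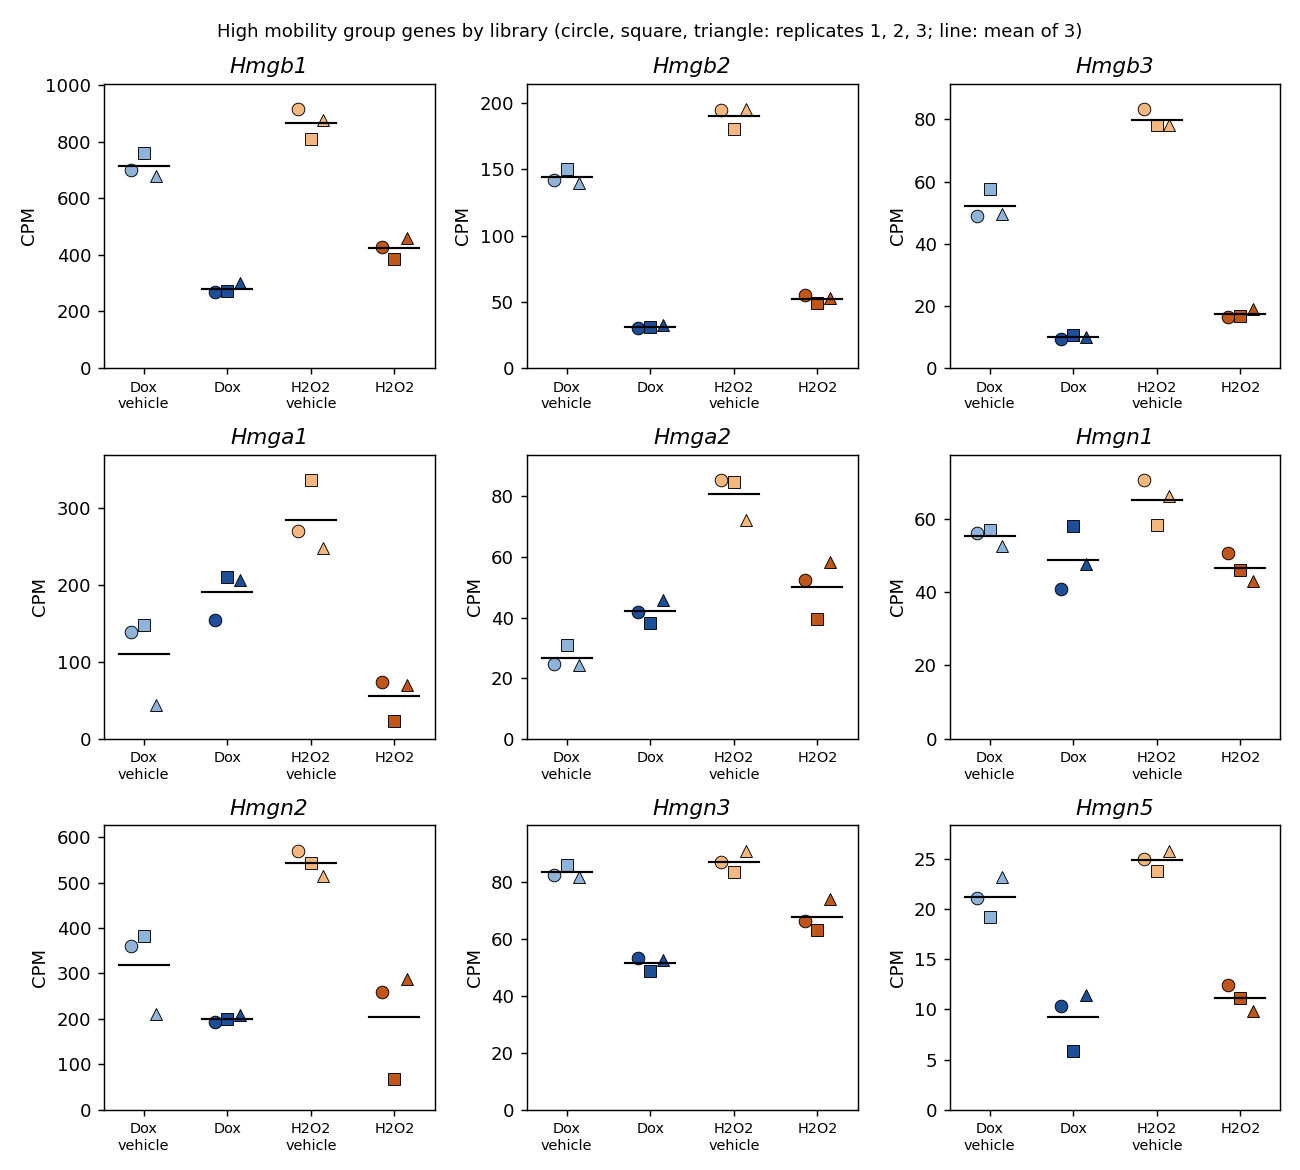
CPM of each of the 9 high mobility group genes in each library (y axes, CPM, each from 0) by group (x axes), where Dox is doxorubicin, H2O2 is hydrogen peroxide, symbols are replicates and lines are means of 3. Treated libraries of Hmgb1, Hmgb2 and Hmgb3 sit below all libraries of their vehicle groups, while Hmga1 and Hmga2 sit above their vehicle after doxorubicin and below it after peroxide.

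Hmgb2, an HMG-box protein of proliferating cells and of the germ line, lies on chromosome 8 (57511907 to 57515999, plus strand, mm10). It was at 30.3, 30.9 and 32.1 CPM after doxorubicin and at 142, 150.5 and 140.1 CPM in the matching vehicle. After peroxide it was at 55.1, 48.9 and 52.9 CPM, against 195, 180.4 and 195 CPM. Every treated library lay far below every vehicle library, and the libraries of a group were nearly level. It fell by 2.18 ± 0.07 log2 units (SE, n = 3 per group, limma adjusted p = 1.39e-09) after doxorubicin, to 21.6% of the vehicle mean, and by 1.84 ± 0.07 (adjusted p = 6.35e-09) after peroxide, to 27.5%. Its residual SD of 0.0643 log2 units was larger than that of 2.5% of tested genes, and 22 genes had a more negative fold change after doxorubicin.

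Hmgb3, an X-linked HMG-box gene linked to haematopoietic and other progenitor cells (71555918 to 71560676, plus strand), had the lowest level of the family. Doxorubicin libraries were at 9.34, 10.6 and 9.81 CPM and their vehicle libraries at 48.9, 57.6 and 49.5 CPM. Peroxide libraries were at 16.5, 16.6 and 18.9 CPM and theirs at 83.2, 78.2 and 78.4 CPM. Treated and vehicle libraries again did not overlap in either experiment. The log2 fold change was -2.28 ± 0.09 after doxorubicin (limma adjusted p = 7.05e-09) and -2.15 ± 0.09 after peroxide (adjusted p = 1.58e-08), and 17 and 64 genes were more negative.

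Hmgb1 (chromosome 5, 149046702 to 149184489, minus strand), the most abundant HMGB transcript and the one whose protein serves as the alarm signal, fell less. It was at 269, 273 and 299 CPM after doxorubicin against 701, 762 and 678 CPM, and at 427, 386 and 460 CPM after peroxide against 915, 810.2 and 877 CPM. No treated library reached the lowest vehicle library of its experiment. The log2 fold change was -1.34 ± 0.08 (limma adjusted p = 1.91e-07) after doxorubicin and -1.03 ± 0.08 (adjusted p = 1.45e-06) after peroxide, so treated cells kept 39.3% and 48.9% of the vehicle mean. In GENCODE M21, 7 other gene models overlap Hmgb1, among them Uspl1 on the opposite strand, and whether the counting used strand is not given in the sources used here.

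Because Hmgb2 and Hmgb3 fell more than Hmgb1, the make-up of the family shifted. For each Hmgb1 read (ratio of CPM, not per length), vehicle cells had 0.202 ± 0.00454 (SD, n = 3) Hmgb2 reads in the doxorubicin experiment and 0.220 ± 0.00546 in the peroxide experiment. Treated cells had 0.111 ± 0.00325 and 0.124 ± 0.00744. The Hmgb3 to Hmgb1 ratio went from 0.0728 ± 0.00290 to 0.0354 ± 0.00305 with doxorubicin and from 0.0923 ± 0.00379 to 0.0409 ± 0.00212 with peroxide. Treated and vehicle ratios did not overlap in any of these 4 comparisons, and an exact two-sided permutation test gave p = 0.1 for each, the smallest p that 3 libraries against 3 allow. Of the ratios between Hmgb3 and Hmgb2, -0.18 log2 units separated doxorubicin from its vehicle and -0.35 peroxide from its own (p = 0.1 each, exact permutation). Summed over the family, HMGB transcripts were at 322 ± 17.3 CPM after doxorubicin against 910 ± 53.3, and at 494 ± 40.1 after peroxide against 1138 ± 63.3 (SD, n = 3).

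**Figure D2:**
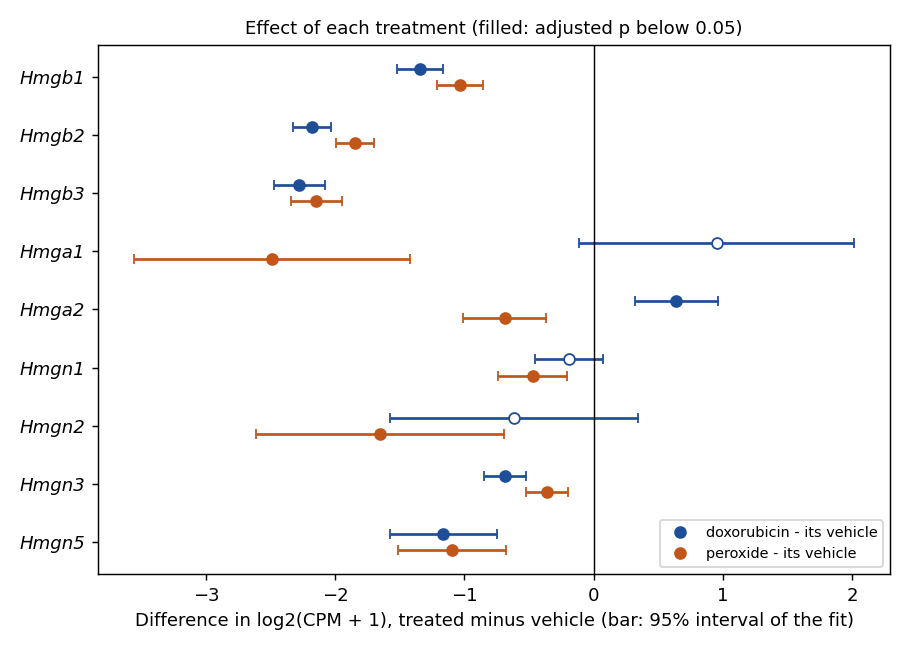
Difference in log2(CPM + 1) between treated and vehicle libraries (x axis) for each gene (y axis), for doxorubicin (blue) and peroxide (orange), with 95% intervals of the limma fit and filled points for an adjusted p below 0.05. The HMGB genes lie between -2.28 and -1.03 in both treatments, whereas Hmga1 and Hmga2 lie on opposite sides of 0.

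The HMGA genes lay above their vehicle after doxorubicin and below it after peroxide. Hmga2, an AT-hook protein of embryonic and transformed cells (chromosome 10, 120361275 to 120476469, minus strand), was at 42.0, 38.3 and 45.8 CPM after doxorubicin and at 24.6, 31.1 and 24.5 CPM in the vehicle. After peroxide it was at 52.5, 39.6 and 58.3 CPM, against 85.2, 84.6 and 72.0 CPM. Doxorubicin libraries were thus all above their vehicle, and peroxide libraries all below theirs. Hmga2 rose by 0.64 ± 0.15 log2 units (limma adjusted p = 0.00373) after doxorubicin and fell by 0.69 ± 0.15 (adjusted p = 0.00223) after peroxide, and the difference between these effects was 1.33 ± 0.21 (adjusted p = 0.00108). The vehicle groups were not level: the doxorubicin vehicle minus the peroxide vehicle was -1.56 ± 0.15 (adjusted p = 3.05e-05), while the treated groups had means of 42.0 ± 3.74 and 50.1 ± 9.58 CPM (SD, n = 3).

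Hmga1, an AT-hook protein of embryonic and proliferating cells (chromosome 17, 27556497 to 27563674, plus strand), varied most within groups. After doxorubicin it was at 155, 211 and 207 CPM, and in the vehicle at 139, 149 and 44.4 CPM. Peroxide libraries were at 74.5, 22.8 and 70.6 CPM, and their vehicle libraries at 270.4, 337 and 248 CPM. The doxorubicin libraries were above all of their vehicle libraries, by little for the highest of these, and the peroxide libraries were all well below theirs. The log2 fold change of 0.95 ± 0.48 after doxorubicin did not pass the test (limma adjusted p = 0.124, 95% interval -0.11 to 2.02), whereas the fall after peroxide did (-2.49 ± 0.48, adjusted p = 0.00131). The effects differed by 3.44 ± 0.69 (adjusted p = 0.00430).

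Doxorubicin vehicle replicate 3 and peroxide replicate 2, the low libraries of Hmga1, were also the libraries that stood apart. In Hmga1 they lay -1.67 and -1.63 log2 units from the mean of the other libraries of their groups. In its near copy Hmga1b they lay at -0.82 and -1.06, and in Mki67, a marker of proliferating cells, at 0.06 and -0.15. Mki67 does not stand for all proliferation genes. Top2a and Ccna2 also stayed nearly level, but Plk1 and Mcm2 had 1 low library in these groups. Plk1 was at 36.4 CPM beside 97.0 and 100.5 in the doxorubicin vehicle, and at 3.61 beside 33.3 and 40.2 after peroxide. Mcm2 was at 31.6 CPM beside 81.9 and 86.2 in that vehicle. A setting without both doxorubicin vehicle replicate 3 and peroxide replicate 2 was added after the data were examined. There Hmga1 was at 0.39 after doxorubicin (limma adjusted p = 0.0508), at -1.95 after peroxide (adjusted p = 3.51e-06) and at 2.34 for the difference (adjusted p = 0.000114). Leaving out peroxide replicate 2 alone put the unaltered doxorubicin effect on Hmga1 past the threshold (adjusted p = 0.0498), and so did leaving out both and doxorubicin replicate 1 (0.54, adjusted p = 0.00314). The direction of each Hmga1 effect was the same in all of these fits. Without the 2 libraries Hmga2 rose by 0.58 and fell by 0.53, both still called (adjusted p = 0.00302 and 0.00474).

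**Figure D3:**
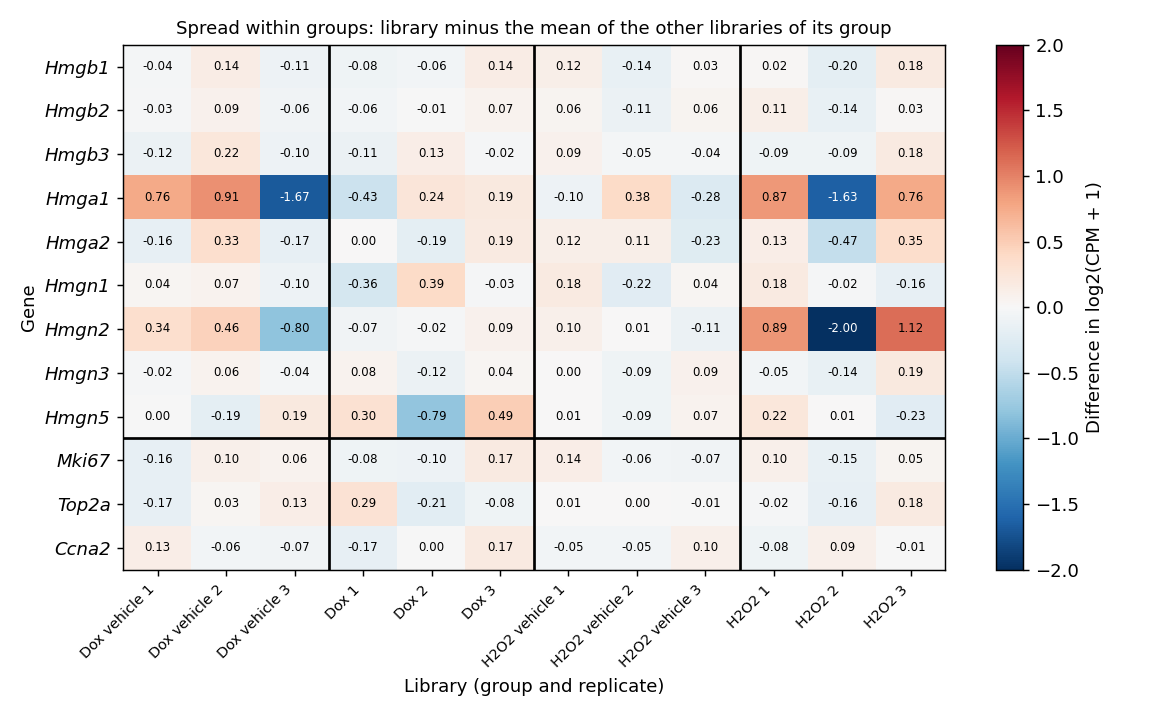
Difference in log2(CPM + 1) between each library and the mean of the other libraries of its group (colour and printed value) for the 9 genes and 3 proliferation genes (rows) in 12 libraries (columns). Hmga1 and Hmgn2 carry the widest spread, with doxorubicin vehicle replicate 3 at -1.67 and -0.80 and peroxide replicate 2 at -1.63 and -2.0, while the HMGB genes stay within 0.22 of 0.

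The residual SD of Hmga1 was 0.695 log2 units and that of Hmgn2 0.626, beside a median of 0.168 over tested genes; 97.7% and 96.8% of tested genes had a smaller one. The GC content of the longest transcript was 61.4% for Hmga1 and 54.2% for Hmgn2, against a median of 49.2%. A correction of each library for its trend with GC content left Hmga1 at 0.97 after doxorubicin (limma adjusted p = 0.111) and at -2.49 after peroxide (adjusted p = 0.00118). Hmga1 overlaps AI413582 and Gm49774, both on the opposite strand, and Hmga2 overlaps the antisense models 1700006J14Rik and 9230105E05Rik. Reads of such pairs cannot be told apart if strand was not used.

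Of the 4 HMGN genes, 2 fell after doxorubicin (Hmgn3 and Hmgn5) and all 4 fell after peroxide, beside 27.8% and 23.4% of tested genes. Hmgn2 (chromosome 4, 133964738 to 133968650, minus strand), a major HMGN protein of most cells, was at 194, 199 and 209 CPM after doxorubicin and at 360.4, 382 and 212 CPM in its vehicle. After peroxide it was at 259.6, 67.5 and 289 CPM, against 569, 544 and 515 CPM. The groups did not overlap in either experiment, although doxorubicin vehicle replicate 3 nearly reached the treated libraries. The log2 fold change of -0.62 ± 0.44 after doxorubicin missed the threshold (limma adjusted p = 0.261, 95% interval -1.58 to 0.35), and the fall of -1.65 ± 0.44 after peroxide passed it (adjusted p = 0.00855). Without the 2 libraries that stood apart, Hmgn2 was called in both, at -0.88 (adjusted p = 4.63e-06) and -0.98 (adjusted p = 2.06e-06, and -0.98 also without peroxide replicate 2 alone), and the difference between the effects was 0.10 (adjusted p = 0.463) in place of 1.04 ± 0.62 (adjusted p = 0.212).

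Hmgn5, an X-linked nucleosome-binding protein with a long acidic tail (109004534 to 109013404, minus strand), had the lowest mean CPM of the 9 genes in each of the 4 groups. Its levels were 10.3, 5.86 and 11.4 CPM after doxorubicin against 21.1, 19.3 and 23.2, and 12.4, 11.1 and 9.89 CPM after peroxide against 25.0, 23.8 and 25.8. All treated libraries lay below all vehicle libraries. It fell by 1.16 ± 0.19 (limma adjusted p = 0.000404) and by 1.1 ± 0.19 (adjusted p = 0.000569), to 43.4% and 44.8% of the vehicle means.

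Hmgn3, an HMGN protein known from endocrine and neural tissue (chromosome 9, 83109948 to 83146685, minus strand), fell less and varied little. It was at 53.4, 48.7 and 52.4 CPM after doxorubicin against 82.3, 85.8 and 81.7, and at 66.1, 63.2 and 73.9 CPM after peroxide against 87.0, 83.3 and 90.7. Treated libraries were below vehicle libraries throughout. The changes were -0.68 ± 0.07 (limma adjusted p = 1.80e-05) and -0.36 ± 0.07 (adjusted p = 0.00176).

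Hmgn1 (chromosome 16, 96120618 to 96127729, minus strand), a nucleosome-binding protein of most tissues, was the gene whose libraries overlapped after doxorubicin, at 40.8, 57.9 and 47.6 CPM against 56.1, 57.0 and 52.5. Peroxide libraries were at 50.5, 45.9 and 43.1 CPM and their vehicle at 70.4, 58.4 and 66.1, without overlap. The doxorubicin effect of -0.19 ± 0.12 was not called (limma adjusted p = 0.212, 95% interval -0.45 to 0.08). Leaving out doxorubicin replicate 2, its highest treated library, gave -0.32 (adjusted p = 0.0357). Without doxorubicin vehicle replicate 3 and peroxide replicate 2 it was -0.22 (adjusted p = 0.205). Without these and doxorubicin replicate 1, its lowest treated library, it was -0.10 (adjusted p = 0.484). The peroxide effect was -0.47 ± 0.12 (adjusted p = 0.00692).

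In all, the libraries of 8 genes did not overlap between doxorubicin and vehicle, beside 59.7% of tested genes (33.6% lower), and those of 9 did not between peroxide and vehicle, beside 59.9% (29.3% lower).

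Per kilobase of exon, a rough way to compare levels between genes, Hmgn2 led the peroxide vehicle at 272 ± 13.4 CPM per kb (SD, n = 3). Hmgb1 followed at 215 ± 13.2, Hmga1 at 134 ± 21.6, Hmgb2 at 72.4 ± 3.27, Hmgn3 at 56.3 ± 2.39, Hmgb3 at 44.4 ± 1.58, Hmgn1 at 29.9 ± 2.80, Hmga2 at 21.2 ± 1.96 and Hmgn5 at 12.9 ± 0.499 CPM per kb. No neighbours in that order overlapped. These levels leave out near copies, described below, which had 50.2 to 66.5% of the CPM of Hmgb1. For Hmgn2 the copies had 5.24 to 8.43%, and the order with copies added was not tested in any group. In the doxorubicin vehicle Hmgb1 (177 ± 10.7 CPM per kb) and Hmgn2 (160 ± 46.4) led with overlapping libraries, Hmgb2 (54.9 ± 2.09), Hmgn3 (53.9 ± 1.42) and Hmga1 (52.1 ± 27.1) followed with overlap between neighbours, and Hmga2 was last at 7.01 ± 0.996.

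After doxorubicin Hmgn2 (101 ± 3.67 CPM per kb), Hmga1 (89.9 ± 14.8) and Hmgb1 (69.6 ± 4.08) led, with overlap between neighbours. Hmgb2 was at 11.8 ± 0.356 CPM per kb and overlapped Hmga2 at 11.03 ± 0.982. After peroxide Hmgb1 (105 ± 9.13) and Hmgn2 (103 ± 60.3) led and overlapped. Hmga1 was at 26.3 ± 13.6 CPM per kb and its libraries overlapped those of Hmgn1 at 21.4 ± 1.72, which overlapped those of Hmgb2 at 19.9 ± 1.21. Summed in CPM, HMGA transcripts were at 233 ± 31.5 after doxorubicin against 137 ± 60.0 in vehicle, and at 106 ± 37.9 after peroxide against 366 ± 51.2.

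The second comparison asked whether the effects of the treatments differed, as the doxorubicin effect minus the peroxide effect. It called 4 of the 9 genes, Hmga1, Hmga2, Hmgb2 and Hmgn3, with 2 higher and 2 lower, against 33.6% of tested genes in either direction, 13.5% higher and 20.1% lower. Hmgb2 fell more after doxorubicin by a difference of -0.33 ± 0.09 (limma adjusted p = 0.0216), and Hmgn3 likewise by -0.33 ± 0.10 (adjusted p = 0.0336). Leaving out doxorubicin vehicle replicate 2 (adjusted p = 0.0532), peroxide replicate 1 (0.0502) or peroxide vehicle replicate 2 (0.0583) ended the Hmgb2 call, and leaving out any of 8 libraries ended that of Hmgn3 (adjusted p = 0.0566 to 0.0805). The Hmgn3 call was also lost with no filter (limma adjusted p = 0.0621), median-of-ratios scaling (0.0701), no trend (0.0522) and the replicate block (0.0627). For Hmgb1 the difference was -0.31 ± 0.11 (adjusted p = 0.0556), and it passed in 7 alternatives: the GC correction (adjusted p = 0.0143), a filter of 5 CPM (0.0491), upper-quartile scaling (0.019996), array weights (0.0150), and fits without peroxide replicate 2 (0.019989), without it and doxorubicin vehicle replicate 3 (0.0187), and without both and doxorubicin replicate 1 (0.0163). No difference was called for Hmgb3 (-0.13, 95% interval -0.41 to 0.15), Hmgn1 (0.28, -0.09 to 0.66) or Hmgn5 (-0.07, -0.65 to 0.52), and the intervals do not show that these effects were equal. Agent, schedule and day of lysis all differed between the experiments and cannot be told apart.

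The vehicle groups, which share their libraries with both treatment comparisons, were set against each other. All 5 called genes were lower in the doxorubicin vehicle, against 28.0% of tested genes called in either direction and 12.9% lower. These were Hmga2, Hmga1 (-1.53 ± 0.48, limma adjusted p = 0.0364), Hmgb3 (-0.61 ± 0.09, adjusted p = 0.000548), Hmgb2 (-0.40 ± 0.07, adjusted p = 0.00132) and Hmgb1 (-0.28 ± 0.08, adjusted p = 0.0241). Libraries of 8 genes did not overlap between the vehicle groups, all lower in the doxorubicin vehicle, beside 52.2% of tested genes (26.3% lower). Hmgn3 differed least, at -0.06 (95% interval -0.22 to 0.10). Of 24 proliferation genes, 21 were also lower in the doxorubicin vehicle and 0 higher, and the part of this difference in the member levels was not tested. The Hmga1 call was lost without doxorubicin vehicle replicate 3 (-0.97, limma adjusted p = 0.126), peroxide vehicle replicate 1 (adjusted p = 0.0836), 2 (0.112) or 3 (0.0625), or doxorubicin replicate 3 (0.0504), and with no filter on low values (0.0881). Without that library and peroxide replicate 2 it was -0.97 and called (adjusted p = 0.00123). The Hmgb1 call was lost without doxorubicin vehicle replicate 1 (limma adjusted p = 0.0731) or 3 (0.0928), without peroxide vehicle replicate 1 (0.0965) or 3 (0.0633), with upper-quartile scaling (0.0557) and with no filter (0.0604). Hmgn2 (-0.82 ± 0.44, limma adjusted p = 0.188) was called with array weights (0.0362) and without peroxide replicate 2 (0.00557). It was also called without that library and doxorubicin vehicle replicate 3 (0.000437), and without these and doxorubicin replicate 1 (0.000216).

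Proliferation genes fell in both treatments. Of the 24, 20 fell and 1 (E2f1) rose after doxorubicin, with a median log2 fold change of -1.24, and 23 fell and 1 rose after peroxide, with a median of -1.54. Of all tested genes, 27.8% and 23.4% fell. Mki67 fell by 2.00 and 1.85, Top2a, which encodes the topoisomerase that doxorubicin poisons, by 1.82 and 1.17, Ccna2, a cyclin of S phase and mitosis, by 1.90 and 1.62, and Ccnb1, a mitotic cyclin, by 1.82 and 1.55. Hmgb3 fell by 2.28 and 2.15, more than each of these named genes in both treatments. Hmgb2 fell more than each of them after doxorubicin (by 2.18) and about as much as Mki67 after peroxide (by 1.84). The falls of Hmgb1 and Hmgn5 were smaller than those of the named genes. Beside the median of the 24 genes, Hmgb1 fell slightly more after doxorubicin (-1.34 against -1.24) and less after peroxide (-1.03 against -1.54). Hmgn5 was close to that median after doxorubicin (-1.16) and fell less than it after peroxide. Whether member changes go beyond those of proliferation was not tested.

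The genes whose levels followed each member most closely were named by Pearson r over the 12 libraries, as a description among 11490 named genes. The libraries share the structure of treatments and experiments, so these values carry no p. The libraries that stood apart were kept, and r without them was not computed. Hmgb1 was closest to Depdc1a, a mitotic gene (r = 0.997), Hmgb2 to Rfc4, a subunit of the replication clamp loader (0.996), and both were near Dbf4, the activator of the Cdc7 kinase (0.996 each). Hmgb3 was closest to Sgo1, the shugoshin of the centromere (0.998), and Gas2l3, a cytoskeletal linker (0.996). Hmga1 was nearest to Ino80e (0.982) and Spen (0.981), Hmga2 to the choline transporter Slc5a7 (0.945) and the G1 kinase gene Cdk6 (0.942), Hmgn1 to Car8 (0.958) and Ints5 (0.956), Hmgn2 to the mitochondrial folate enzyme Mthfd2 (0.992) and Selenoh (0.990), Hmgn3 to Fam171b (0.994) and Taf9b (0.989), and Hmgn5 to Usp12 (0.979) and Snrpb2 (0.972). Like Hmga1 and Hmgn2, some of their nearest genes had 1 low peroxide library. Ino80e was at 7.47 CPM beside 21.6 and 25.0, Mthfd2 at 63.2 beside 282 and 334, and Selenoh at 6.30 beside 34.2 and 37.8. Spen was at 3.95 CPM beside 6.09 and 6.54. The part of such libraries in r was not tested. Among the members, the HMGB genes followed each other (r = 0.990 to 0.996). Hmga1 and Hmga2 had r = 0.483 with each other, and Hmga1 had 0.236 with Hmgb1.

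Genes that work with these proteins were taken as lists. Of all tested genes, 27.8% fell and 22.1% rose after doxorubicin, and 23.4% fell and 27.3% rose after peroxide. Of 8 genes of the SET complex and related chromatin proteins, which include partners of HMGB2, 7 fell and 1 rose after doxorubicin (median -0.70), and 6 fell and 1 rose after peroxide (median -0.79). Set itself, a histone chaperone, fell by 0.71 and 1.11, and Anp32e, which removes the histone variant H2A.Z, from 297 ± 2.83 to 136 ± 7.99 CPM (SD, n = 3) with doxorubicin and from 352 ± 7.08 to 153 ± 4.89 with peroxide. Trex1, a DNA exonuclease, was the gene that rose, by 1.35 and 1.12.

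Of 26 tested genes of linker histones, heterochromatin and histone chaperones, 13 fell and 4 rose after doxorubicin (median -0.33), and 15 fell and 3 rose after peroxide (median -0.47). The shares of all tested genes that fell were 27.8% and 23.4%. Asf1b, a histone chaperone of replicating cells, fell by 1.63 (limma adjusted p = 5.56e-08) and 1.49 (adjusted p = 1.32e-07), and the heterochromatin proteins Cbx3 and Cbx5 by 0.82 and 0.63 after doxorubicin and by 0.74 and 0.51 after peroxide. The linker histone genes went both ways. H1f5 fell by 2.09 and 2.59, H1f0 by 0.80 and 0.24, and H1f2 rose by 2.07 and 1.70.

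HMG boxes also occur in proteins outside these families. Of 24 such tested genes, 3 rose and 6 fell after doxorubicin (median -0.10), and 7 rose and 9 fell after peroxide (median -0.16). Over all tested genes, 49.9% and 50.7% were called in either direction. Wdhd1, a replication factor, fell by 1.39 and 1.47. Tox, a nuclear factor of lymphocyte development, rose by 1.1 and 1.89, from mean levels of 2.25 and 0.997 CPM, and Sox9, a transcription factor of cartilage and progenitor cells, rose by 0.41 and 0.99. Ssrp1, a subunit of the FACT histone chaperone, fell by 0.84 after peroxide and was at -0.18 after doxorubicin (adjusted p = 0.0882, limma). Tfam, which packages mitochondrial DNA, fell by 1.33 after peroxide, with libraries from 7.57 to 23.7 CPM against 32.5 to 42.3 CPM.

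Genes for the export and reception of HMGB1 were tested for 15 of 17. Of these 5 rose and 3 fell after doxorubicin (median 0.13), and 2 rose and 3 fell after peroxide (median -0.22). Over all tested genes, 49.9% and 50.7% were called in either direction, so the counts do not set this list apart. Thbd, thrombomodulin, which binds HMGB1, rose by 2.71 after doxorubicin (limma adjusted p = 7.99e-06) and was at 0.21 after peroxide (adjusted p = 0.519). Cxcl12, a chemokine that forms a complex with HMGB1, rose by 2.27 after doxorubicin. Its doxorubicin libraries spread widely, from 144 to 877 CPM, against 68.4 to 78.6 CPM in the vehicle. Xpo1, the nuclear exporter that carries HMGB1 out of the nucleus, fell by 1.04 and 1.06, and Sirt1, a deacetylase, by 0.59 and 0.92. The receptor gene Ager, which encodes RAGE, stayed near 1 CPM, at means of 0.574 to 1.41 CPM, and was not called in either, and Tlr4 fell by 0.49 after doxorubicin.

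The LIN28, let-7 and IGF2BP genes, which act on Hmga2 mRNA in embryonic tissue, had 10 tested members of 12. After doxorubicin 3 rose and 2 fell (median -0.10), and after peroxide 3 rose and 5 fell (median -0.24). Over all tested genes, 49.9% and 50.7% were called in either direction, and the doxorubicin count is near that share. Lin28a was at 0 in all libraries and Lin28b at means of at most 0.0189 CPM. Igf2bp1, an mRNA-binding protein, rose by 0.42 after doxorubicin and fell by 0.32 after peroxide, while Igf2bp2 rose in both (0.56 and 0.65). Tut7, a uridyltransferase of let-7 precursors, rose by 0.36 and 0.75. Every list gene said to have risen or fallen had a limma adjusted p below 0.05.

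Reads of several of these genes are hard to place, because the mouse genome holds copies of them. Of the 50-base windows of Hmgb1 transcripts, 22.7% also occur in 132 other gene models, with both strands compared. The shares were 18.7% for Hmgb2, 25.0% for Hmgb3, 55.0% for Hmga1 (nearly all with Hmga1b), 25.4% for Hmgn2 and 18.6% for Hmgn5. They were 9.82% for Hmgn3, 4.33% for Hmgn1 and 2.73% for Hmga2. The Hmgn3 share was with 1 model, Gm29054, which overlaps Hmgn3 on the opposite strand and is not a copy elsewhere. Of the Hmga2 windows, 1.39% were shared with its overlapping antisense model 1700006J14Rik. Of the models that hold at least 3% of the windows of Hmgb1, 26 were in the table, 14 reached 1 CPM in some library, and together they had 50.2 to 66.5% of the CPM of Hmgb1. The share was 27.5 to 35.4% for Hmgb2, 5.48 to 10.99% for Hmga1 and 5.24 to 8.43% for Hmgn2.

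The largest copy was Gm15387, a processed pseudogene of Hmgb1 on chromosome 15 (74093686 to 74094333, minus strand). It was at 121 ± 5.48 CPM after doxorubicin against 277 ± 12.04, and at 175 ± 23.4 after peroxide against 360 ± 21.3 (SD, n = 3). Gm21596 (chromosome 2, 113919247 to 113920562, minus strand), another Hmgb1 pseudogene, was at 37.2 ± 4.87 against 100.1 ± 12.2 and at 54.6 ± 8.66 against 115 ± 8.10. Gm4739, a pseudogene of Hmgb2 (chromosome 10, 26107789 to 26108421, plus strand), was at 9.90 ± 1.22 against 40.4 ± 0.995 and at 15.6 ± 2.41 against 55.0 ± 1.32. Hmga1b, a protein-coding copy of Hmga1, was at 10.9 ± 1.56 against 7.89 ± 2.61 (log2 fold change 0.47, limma adjusted p = 0.211) and at 4.28 ± 2.07 against 18.1 ± 1.5 (-1.94, adjusted p = 0.000248). The pseudogenes fell with their parent genes, Gm15387 by 1.19 and 1.04, Gm21596 by 1.40 and 1.07 and Gm4739 by 1.93 and 1.77 log2 units. Adding the CPM of all such copies to the parent left the log2 fold changes of Hmgb1 at -1.31 and -1.04, of Hmgb2 at -2.15 and -1.84, of Hmga1 at 0.92 and -2.47 and of Hmgn2 at -0.61 and -1.66, for doxorubicin and peroxide. These values do not tell reads transcribed from a copy from reads of the parent gene assigned to it.

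**Figure D4:**
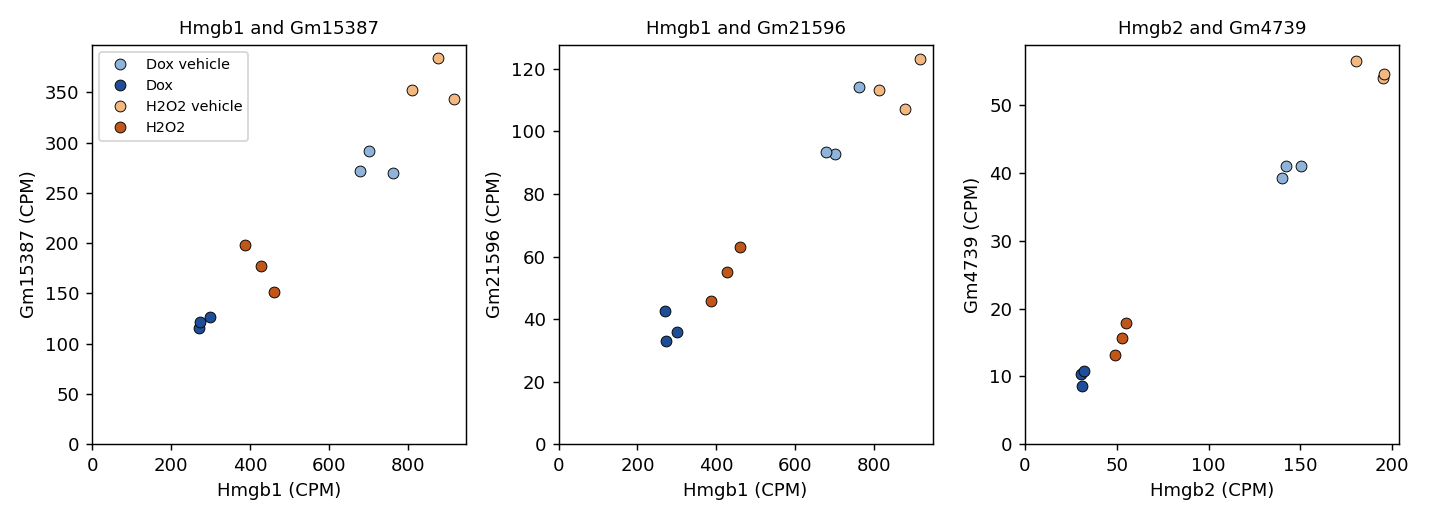
CPM of the Hmgb1 pseudogenes Gm15387 and Gm21596 against Hmgb1, and of the Hmgb2 pseudogene Gm4739 against Hmgb2, in each of 12 libraries (both axes in CPM and from 0, Dox is doxorubicin and H2O2 is hydrogen peroxide). The pseudogene levels are low where the parent gene is low, as in the doxorubicin group with Gm4739 at 8.53 to 10.9 CPM and Hmgb2 at 30.3 to 32.1 CPM.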

How the data were processed

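RNA of 12 libraries was extracted with an RNeasy kit and sequenced on an Illumina NovaSeq instrument, per the labels' protocols. The authors deposited a table of CPM per gene. The submitters' processing notes list the mm10 build and, with no version, DRAGEN and bcl2fastq. How reads were counted, whether by strand, and with which annotation is not given in the sources used here. Of 55774 lines, 287 repeated 1 of 168 identifiers with identical values, and 55487 genes remained. Positions and transcripts came from GENCODE M21 (GRCm38), which held 99.4% of identifiers.

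Depth was read from the most frequent low value of each library, taken as 1 read. At a tolerance of 0.001 read, whole reads made up 74.7 to 79.9% of the values up to 20 reads, so counts were estimates and no count model was run. Floors of 3 reads reflect counting error alone. Tests covered the 13280 genes with 1 CPM or more in at least 3 of 12 libraries, on log2(CPM + 1) with limma 3.58.1 in R 4.3.3, 1 model of 4 groups with a mean-variance trend and 8 residual degrees of freedom. The Benjamini-Hochberg adjustment was made per comparison, and the threshold was 0.05. The fit was tested on simulated data. Values, ratios and figures used Python 3.11.15, numpy 2.4.6, pandas 2.3.3, scipy 1.17.1 and matplotlib 3.10.9.

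The 9 genes, the lists and the tests were chosen with earlier results of these data known. Named were the 9 genes, the 2 genes most correlated with each (without predicted models), the gene with the smallest adjusted p of each list and treatment, and Mki67, Top2a and Ccna2. A gene that this rule names is not reported here. Other list genes and all near copies are examples picked once their values were known. Near copies share at least 3% of a gene's 50-base windows. Alternatives covered pseudocounts of 0.1 and 2, filters, scalings, the trend, array weights, a replicate block, separate fits, a threshold of 0.01 and leaving out each library. After the data were examined, fits without 2 or 3 libraries that stood apart and a GC correction were added.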

Additional observations from a re-analysis of the deposited data

Results flagged for a closer look

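For 4 genes the effects of the treatments differed by a test of the difference itself, given as the doxorubicin effect minus the peroxide effect on the log2(CPM + 1) scale. Hmga1 differed by 3.44, with its peroxide libraries all below and its doxorubicin libraries all above their vehicles. Hmga2 differed by 1.33, with the same pattern. Hmgb2 differed by -0.33 and Hmgn3 by -0.33, and both were lower than vehicle in all libraries of both treatments.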

How the results depend on the processing

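All 9 genes were called after peroxide in every alternative run. The doxorubicin count of 6 ran from 6 to 9 over the alternatives, with 9 under array weights (where limma's estimation of weights stopped before its convergence tolerance), 8 without peroxide replicate 2 and 6 to 8 when each library was left out. The added fits without doxorubicin vehicle replicate 3 and peroxide replicate 2 gave 7, and without these and doxorubicin replicate 1 gave 8. The count for the difference between treatments was 4 and became 2 at an adjusted p below 0.01, and leaving out each library gave 2 to 5. It was 2 without doxorubicin vehicle replicate 2 or peroxide vehicle replicate 2. The vehicle count of 5 became 3 with no filter on low values and 3 at an adjusted p below 0.01, and leaving out each library gave 3 to 6. It was 3 without doxorubicin vehicle replicate 3, peroxide vehicle replicate 1 or peroxide vehicle replicate 3. A sign change occurred in 1 gene, Hmgn5, whose uncalled difference of -0.07 between treatments was 0.13 with array weights and ran from -0.23 to 0.19 as each library was left out (0.19 without doxorubicin replicate 2, 0.00591 without peroxide replicate 1). The cause of these changes was not tested. Same-numbered libraries did not deviate together (r of -0.31, 0.19 and -0.28 in the doxorubicin experiment and 0.14, 0.03 and -0.24 in the peroxide experiment), so the numbers were not taken as pairs. With the replicate block the counts were 6, 9 and 3. The vehicle groups belong to different experiments, so the block could not be fitted to their comparison, and separate fits cover only the treatment comparisons. Depth did not limit these genes, whose lowest value was 5.86 CPM against floors of at most 0.173 CPM, while Lin28a and Lin28b were under the floors.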
